A study of Mus musculus with 8 samples.

Results

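The genes described here build the machinery that brings nuclear-encoded proteins into mitochondria. They were taken by name from the count files: every symbol that begins with Timm or Tomm followed by a digit, and 14 others, Pam16, Dnajc19, Grpel1, Grpel2, Hspa9, Hspd1, Hspe1, Samm50, Mtx1, Mtx2, Pmpca, Pmpcb, Chchd4 and Gfer. The rule found 38 genes among 23432 listed symbols and uses names only. Polyadenylated RNA was sequenced from mouse skin epithelium in 2 experiments with 2 libraries per group, 8 libraries in all. In the first, E16.5 back skin epithelial cells carrying the K14-H2BGFP reporter were sorted by FACS from embryos labelled Control and from embryos labelled MOFfl/fl/K14Cre (MOF cKO), in which Krt14-Cre deletes Kat8, the gene of the histone acetyltransferase MOF, in Krt14-expressing epithelium. In the second, P0.5 epidermis was taken off the dermis with dispase from pups labelled Control and Kansl1fl/fl/K14Cre (Kansl1 cKO), in which the same Cre removes exon 3 of Kansl1, a subunit of the MOF-containing NSL complex. The controls were littermates, the stock was mixed C57Bl/6J and CD-1, and the alleles that each control animal carried are not given in the sources used here.

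Most mitochondrial proteins are made in the cytosol and enter through the TOM complex of the outer membrane. From there the SAM complex inserts barrel proteins into the outer membrane, the MIA pathway folds small proteins in the intermembrane space, small TIM chaperones escort hydrophobic carriers to the TIM22 translocase, and the TIM23 translocase with its PAM motor pulls presequence proteins into the matrix. There the processing peptidase removes the presequence, and the chaperonin folds the product. Epidermal keratinocytes depend on this route for the same respiratory and metabolic enzymes as other cells.

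Counts on genes ran from 22484018 to 27561688 in the 4 E16.5 libraries and from 9108709 to 19774643 in the 4 P0.5 libraries. Keratinocyte markers were high in both, with Krt14 between 9690 and 12266 CPM (counts per 1e6, edgeR's unit after TMM scaling) in the sorted cells and between 4384 and 6069 CPM in the epidermis. The targeted genes were counted as whole genes, and loss of the deleted exons was not measured here. Kat8 was at 14.4 and 14.7 CPM in E16.5 control and 12.4 and 13.9 CPM in MOF cKO, a difference that edgeR's quasi-likelihood test did not call (adjusted p = 0.554). Kansl1 was at 40.7 and 48.2 CPM in P0.5 control and 31.4 and 30.6 CPM in Kansl1 cKO (adjusted p = 0.242, same test). Neither value checks the label of its group, so groups are called here by their labels. The sex of the animals, read from Xist, the transcript of the inactive X, differed between libraries and was not balanced between genotypes. Xist was at 1518 and 10.2 CPM in E16.5 control and 11.997 and 9.99 CPM in MOF cKO. At P0.5 it was at 427 and 1.23 CPM in control and 371 and 423 CPM in Kansl1 cKO. Both MOF cKO libraries were thus low in Xist and both Kansl1 cKO libraries high, while each control group was mixed. The part of sex in the differences between groups was not tested. Of the import genes, Timm8a1 and Timm17b are X-linked. In the E16.5 controls, Timm8a1 was at 34.5 CPM in the library high in Xist and at 33.5 CPM in the other.

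In MOF cKO, more import genes rose than fell, though not in every branch of the pathway. Of the 36 import genes with enough counts to test, 17 rose and 3 fell under edgeR's quasi-likelihood test at an adjusted p of 0.01 and a fold change over 1.5, which is 47.2% and 8.33% of them. Among all 13956 genes tested in the same fit, 10% rose and 9.59% fell, so the share that fell was close to that of all genes. All 36 had a mean of at least 10 CPM, and among the 8905 tested genes at that level, a level chosen after the data were seen, 12.7% rose and 10.8% fell. At an unadjusted p under 0.05, 21 import genes were higher and 5 lower, against 23.7% and 25.1% of all genes. Both MOF cKO libraries lay above both controls for 23 import genes (63.9%, against 34.9% of all genes) and below both for 10 (27.8%, against 37.7%). The log2 fold change was above 0 for 25 of 36 (69.4%, against 49.1%), and its median was 0.59 for the import genes and -0.02 for all genes. Together the 38 genes took 0.316% and 0.298% of the gene counts in the controls and 0.390% and 0.386% in MOF cKO.

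The split between rises and falls depends on how libraries are scaled. When libraries were divided by their size alone, without TMM factors, the median of all genes moved to -0.32, the median of the import genes to 0.28, and 5 import genes rose (Chchd4, Grpel2, Hspa9, Hspe1 and Tomm40) and 5 fell (Mtx1, Pmpcb, Samm50, Timm22 and Tomm40l) in place of 17 and 3. Among all genes 5.51% rose and 19.7% fell under that scaling, and each count of 5 is 13.9% of the import genes. None of the 28 import genes that were called or had a log2 fold change of at least 0.3 in either direction changed sign. Changes are therefore given relative to the bulk of genes, and the pair comparisons further on use ratios within a library, which no scaling alters. The number of rises was 16 without control replicate 1, 13 without control replicate 2, 14 without MOF cKO replicate 1 and 17 without MOF cKO replicate 2. The calls lost in these fits were those of Timm17a, Timm8b and Tomm6 without MOF cKO replicate 1, of Pmpca without MOF cKO replicate 2, of Timm8b without control replicate 1, and of Pmpca, Timm23, Tomm6 and Tomm70a without control replicate 2, with adjusted p in edgeR's quasi-likelihood test between 0.0103 and 0.0257. Tomm22 was gained without MOF cKO replicate 2, so the genes that rose in that fit were not the same set as with all libraries. In bulk RNA, fewer cells of a type and less RNA per cell cannot be told apart.

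Markers of another cell type moved with genotype at E16.5, and so did some keratinocyte markers. Of 12 keratinocyte markers, 4 rose in MOF cKO (Dsg3, Krt1, Krt10 and Perp) and 1, Krt15, fell. Krt1, which the paper uses to mark suprabasal cells, was at 1549 and 1255 CPM in control and 4227 and 4691 CPM in MOF cKO. Krt15 was at 4160 and 3327 CPM against 1507 and 1626 CPM. Of 16 macrophage markers, 10 rose in MOF cKO, and their summed level was between 113 and 141 CPM in control and between 364 and 384 CPM in MOF cKO. Lgals3 alone held 85.4 and 86.4 CPM of this sum in control and 251 and 204 CPM in MOF cKO. Lyz2 was at 0.0978 and 0.289 CPM in control and 21.2 and 22.8 CPM in MOF cKO, and no marker of the list was at 0 in all 4 libraries. Of the 14 heat shock and dissociation genes 5 rose (Egr1, Fos, Hsp90aa1, Hspa1b and Hspb1), with a summed level between 9219 and 11299 CPM in control and between 13515 and 14179 CPM in MOF cKO. Of 11 fibroblast markers, 0 were called by edgeR's quasi-likelihood test and 8 were higher at an unadjusted p under 0.05. Of 7 melanocyte markers 0 were called, with 1 higher at that p, and of 6 endothelial markers 1 rose. The part of these cells, of the keratinocyte layers and of sorting in the import gene results was not tested. The summed level of the import genes was 2844 and 2683 CPM in control and 4407 and 4228 CPM in MOF cKO.

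**Figure D1:**
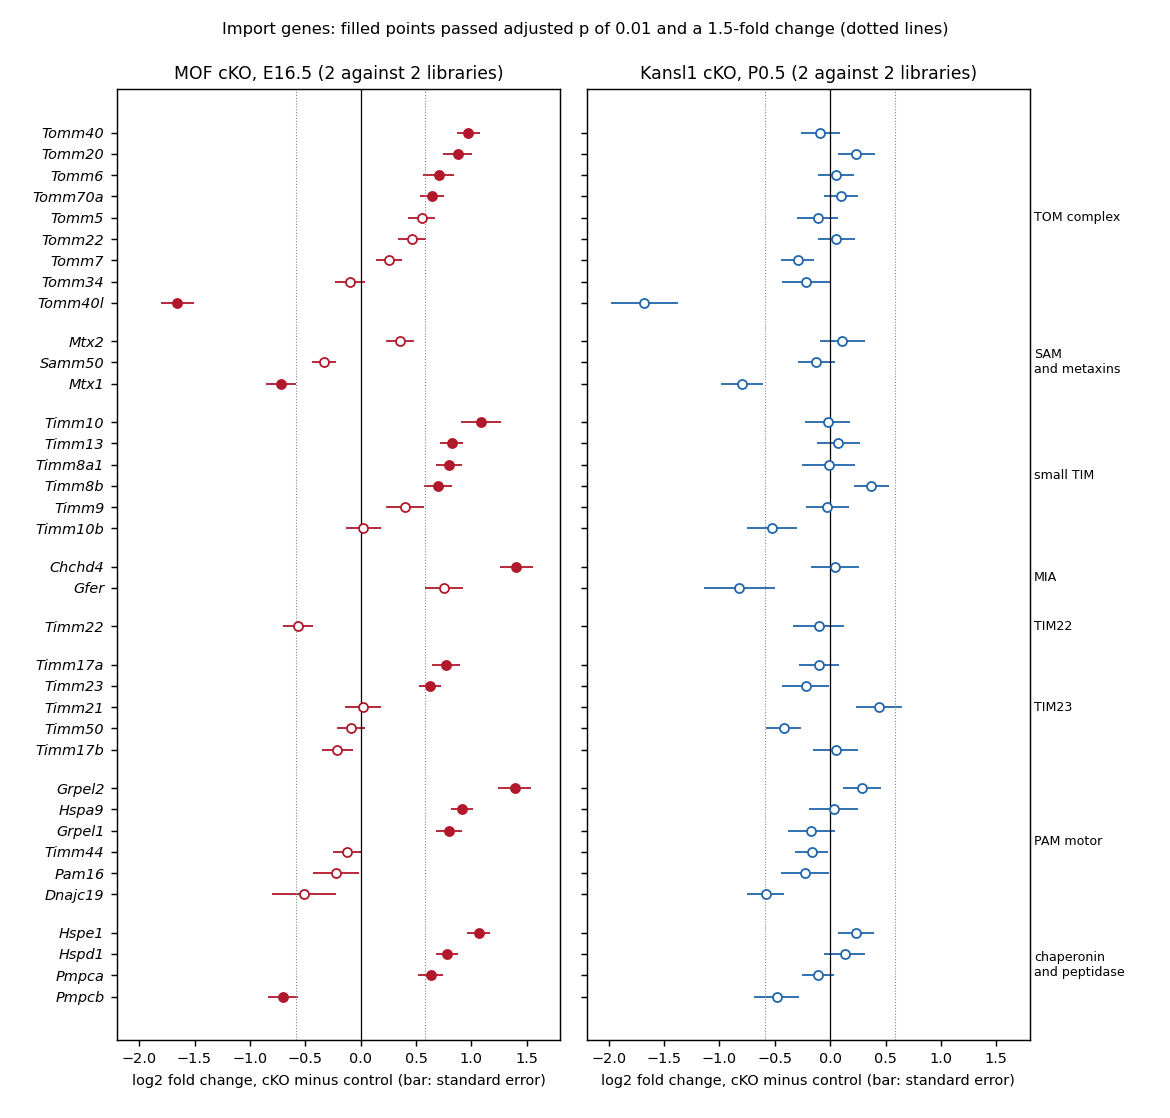
Log2 fold change (cKO minus control, x axis) of each of the 36 tested import genes (rows, by role) in MOF cKO at E16.5 and Kansl1 cKO at P0.5; bars are standard errors, filled points passed the thresholds and dotted lines mark a 1.5-fold change. On the left, 17 filled points lie to the right and 3 (Tomm40l, Mtx1 and Pmpcb) to the left under TMM scaling, with 5 and 5 when libraries are divided by size alone; on the right no point is filled, and Tomm40l is again farthest to the left.

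In the TOM complex, 4 of 9 tested genes rose and 1 fell. Tomm40, the barrel through which nearly all precursors pass, was at 106 and 105 CPM in control and 199 and 214 CPM in MOF cKO. Both MOF cKO libraries lay well above the controls, with a log2 fold change of 0.97 (SE 0.102, adjusted p = 0.000763 by the same edgeR test). Tomm20, a receptor for presequences, was at 158 and 140.3 CPM in control and 299 and 247 CPM in MOF cKO (log2 fold change 0.87, SE 0.130). Tomm70a, the receptor that takes carrier proteins from cytosolic chaperones, was at 101 and 89.9 CPM against 151 and 148 CPM (log2 fold change 0.65, SE 0.109). Tomm6, a small subunit that steadies the complex, was at 62.5 and 52.7 CPM against 102 and 85.8 CPM (log2 fold change 0.70, SE 0.142). For each of these the groups did not overlap, and adjusted p lay between 0.00239 and 0.00784. Tomm5 (log2 fold change 0.55, adjusted p = 0.0121, edgeR's quasi-likelihood test) and the central receptor Tomm22 (0.47, adjusted p = 0.0231) had values of the same sign that missed the thresholds. Tomm7 at 0.26 and the cytosolic co-chaperone Tomm34 at -0.09 were nearer to 0.

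Tomm40l, a paralog of Tomm40 that can also form the barrel, moved the other way. It was at 36.4 and 37.5 CPM in control and 11.2 and 12.2 CPM in MOF cKO, the largest fall among the import genes (log2 fold change -1.65, SE 0.149, adjusted p = 0.000539, edgeR's quasi-likelihood test). Tomm40l lies on the minus strand of chromosome 1 (mm10, chr1:171216011-171222514), and 2160 bases of its exons in the GENCODE M21 basic set (3304 over all transcripts) overlap exons of Nr1i3 on the other strand. Whether counting used strand is not given in the sources used here, so reads of the overlap cannot be assigned with certainty. The paralog Tomm20l had 0 and 3 counts in control and 0 in both MOF cKO libraries and was not tested.

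Of the SAM complex and the metaxins, 0 of 3 genes rose and 1 fell. Mtx1, a metaxin of the outer membrane, fell from 38.9 and 36.6 CPM to 23.3 and 22.5 CPM (log2 fold change -0.72, SE 0.134, adjusted p = 0.00574, edgeR's quasi-likelihood test). Over all annotated transcripts, 318 exon bases of Mtx1 overlap Thbs3. Its partner Mtx2 was at 51.6 and 53.0 CPM in control and 72.4 and 61.3 CPM in MOF cKO, higher in both libraries without passing (log2 fold change 0.35, adjusted p = 0.0627, same test). Samm50, the barrel that inserts other barrels, was at 132 and 122 CPM against 102 and 99.6 CPM (log2 fold change -0.33, adjusted p = 0.0422, same test). The call for Mtx1 was lost when either MOF cKO library or control replicate 1 was left out, and so was that for Pmpcb, while the direction stayed. Without any 1 of these 3 libraries 1 import gene, Tomm40l, was called lower, and the adjusted p of the other two lay between 0.0119 and 0.0338 in edgeR's quasi-likelihood test.

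Among the small TIM chaperones, 4 of 6 tested genes rose and none fell. Timm10 was at 8.51 and 9.17 CPM in control and 18.4 and 19.1 CPM in MOF cKO (log2 fold change 1.08, SE 0.180, adjusted p = 0.00369, edgeR's quasi-likelihood test). Timm9, which forms the hexamer with Timm10, was at 13.3 and 13.6 CPM against 18.5 and 16.9 CPM (log2 fold change 0.40, adjusted p = 0.104, same test). The MOF cKO libraries were thus higher for both partners, but only Timm10 passed the test. The second hexamer is built of Timm13 with a Timm8 protein. Timm13 was at 71.5 and 71.6 CPM in control and 123 and 130.1 CPM in MOF cKO (log2 fold change 0.82, SE 0.106), and Timm8a1 at 34.5 and 33.5 CPM against 61.7 and 56.6 CPM (log2 fold change 0.80, SE 0.121). Timm8b was at 31.3 and 33.5 CPM against 54.4 and 50.8 CPM (log2 fold change 0.70, SE 0.124). Timm13 and the tested Timm8 genes, Timm8a1 and Timm8b, thus all rose, with adjusted p between 0.00143 and 0.0047 in edgeR's quasi-likelihood test. Timm10b, which docks the first hexamer on TIM22, did not differ beyond its error (log2 fold change 0.02, SE 0.159). Timm8a2 had 6, 0, 0 and 0 counts in the 4 E16.5 libraries and was not tested.

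The MIA pathway held the largest rise. Chchd4, the receptor and oxidase that closes disulphides in incoming proteins, was at 16.7 and 15.8 CPM in control and 46.0 and 40.1 CPM in MOF cKO. Its level was 2.65-fold higher, the largest rise among the import genes (log2 fold change 1.41, SE 0.146, adjusted p = 0.000739, edgeR's quasi-likelihood test). Gfer, which reoxidizes Chchd4, was at 11.02 and 12.5 CPM against 19.98 and 19.6 CPM (log2 fold change 0.75, SE 0.173). With an adjusted p of 0.0129 in the same test, Gfer just missed the threshold.

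At the inner membrane the translocases and the motor showed mixed values. Timm22, the channel for carrier proteins, was at 34.7 and 37.0 CPM in control and 24.4 and 24.1 CPM in MOF cKO, lower in both libraries but short of the thresholds (log2 fold change -0.57, adjusted p = 0.0142, edgeR's quasi-likelihood test). In TIM23, 2 of 5 genes rose. Timm23, the channel subunit, was at 98.3 and 94.3 CPM in control and 148 and 149 CPM in MOF cKO (log2 fold change 0.62, SE 0.101, adjusted p = 0.00339, same test). Timm17a, its partner in the membrane, was at 35.5 and 39.2 CPM against 66.6 and 60.9 CPM (log2 fold change 0.77, SE 0.124, adjusted p = 0.00325, same test). The X-linked paralog Timm17b was at 29.0 and 28.0 CPM against 25.1 and 24.1 CPM, a log2 fold change of -0.21 (adjusted p = 0.262, same test). Timm21, at 0.02, and the receptor Timm50, at -0.09, had values within their errors. Among the TIM23 genes the channel and 1 of its alternative partners thus moved, and the receptor and the other partner did not pass.

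In the PAM motor 3 of 6 genes rose, the Hsp70 and its nucleotide exchange factors. Hspa9, the mitochondrial Hsp70 that does the pulling, was at 428 and 394 CPM in control and 782 and 767 CPM in MOF cKO (log2 fold change 0.91, SE 0.101, adjusted p = 0.000867, edgeR's quasi-likelihood test). Its nucleotide exchange factors also rose. Grpel1 was at 54.0 and 49.3 CPM against 87.7 and 91.7 CPM (log2 fold change 0.80, SE 0.116, adjusted p = 0.0022, same test). It shares 411 exon bases with Tada2b on the other strand. Grpel2 was at 37.8 and 30.0 CPM against 84.8 and 93.2 CPM (log2 fold change 1.39, SE 0.147, adjusted p = 0.000773, same test). The 3 other parts, the anchor Timm44, the J protein Dnajc19 and its regulator Pam16, were lower in both MOF cKO libraries, and none passed. Dnajc19 was at 12.98 and 11.7 CPM in control and 10.9 and 6.39 CPM in MOF cKO (log2 fold change -0.51, SE 0.286), with the widest spread of any import gene between the 2 MOF cKO libraries (SD 37.1% of the mean).

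In the matrix, the chaperonin pair rose together. Hspd1, the chaperonin ring, was at 489 and 462 CPM in control and 831 and 797 CPM in MOF cKO (log2 fold change 0.78, SE 0.0990, adjusted p = 0.00137, edgeR's quasi-likelihood test). Hspe1, its lid, was at 179 and 171 CPM against 381 and 353 CPM (log2 fold change 1.07, SE 0.104, adjusted p = 0.000643, same test). These genes have 5 and 6 named pseudogenes in the annotation, and reads that aligned to more than 1 place were not counted. The subunits of the processing peptidase parted. Pmpca, the subunit that holds the presequence, was at 96.7 and 92.1 CPM in control and 137 and 156 CPM in MOF cKO (log2 fold change 0.63, SE 0.113, adjusted p = 0.00488, same test). Pmpcb, the catalytic subunit, was at 57.6 and 48.2 CPM against 31.4 and 33.7 CPM (log2 fold change -0.70, SE 0.139, adjusted p = 0.00736, same test). The groups did not overlap for either subunit, in opposite directions. Pmpca shares 874 exon bases with Inpp5e on the other strand, and Pmpcb has no such overlap.

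**Figure D2:**
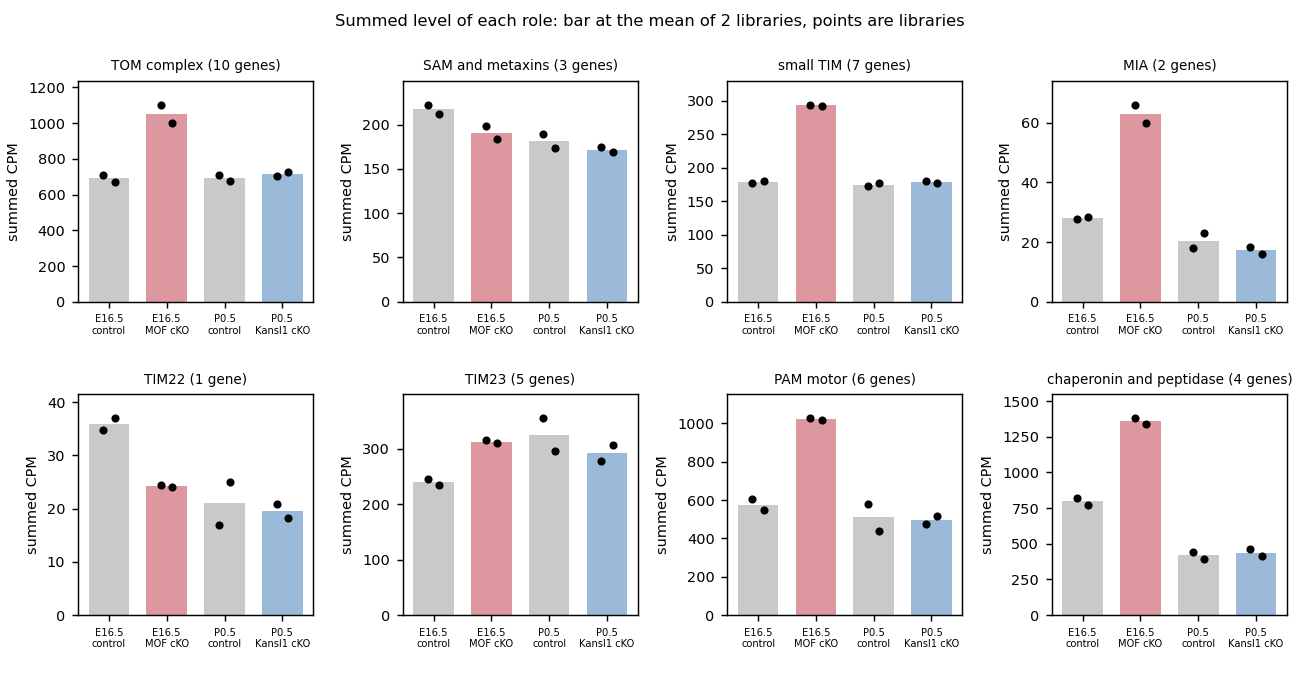
Summed CPM (y axes, from 0) of the genes of each role in the 4 groups (x axes); bars are the mean of 2 libraries and points the libraries. In MOF cKO the sums of TOM, small TIM, MIA, TIM23, PAM and of the chaperonin with the peptidase lie above both E16.5 controls. Those of SAM with the metaxins and of TIM22 lie below both. All sums are shown under TMM scaling, and the P0.5 groups overlap for every role.

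The promoters of 4 of these genes are shown, those of Hspe1, Pmpca and Pmpcb for pairs that moved together or apart and that of Timm23 as a gene that rose and holds the same motif as Pmpcb. Hspd1 and Hspe1 have annotated starts 111 bases from each other on opposite strands. Over all transcripts of GENCODE M21 their exons overlap by 112 bases, and in its basic set, which was used for exon lengths, they do not. The sequences are from RefSeq on GRCm38.p6, from 250 bases before to 50 after the start, and capitals mark matches to any of 6 searched motifs. The Hspe1 window lies at chr1:55087898-55088197 on the plus strand, that of Pmpca at chr2:26389098-26389397 on the plus strand, that of Pmpcb at chr5:21736910-21737209 on the plus strand and that of Timm23 at chr14:32201842-32202141 on the minus strand.
Hspe1: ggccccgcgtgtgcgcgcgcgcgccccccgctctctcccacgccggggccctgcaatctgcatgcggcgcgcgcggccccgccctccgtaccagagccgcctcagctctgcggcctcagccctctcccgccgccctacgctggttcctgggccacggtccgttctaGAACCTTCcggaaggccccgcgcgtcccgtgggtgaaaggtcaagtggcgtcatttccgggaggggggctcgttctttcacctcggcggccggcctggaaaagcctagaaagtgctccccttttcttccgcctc
Pmpca: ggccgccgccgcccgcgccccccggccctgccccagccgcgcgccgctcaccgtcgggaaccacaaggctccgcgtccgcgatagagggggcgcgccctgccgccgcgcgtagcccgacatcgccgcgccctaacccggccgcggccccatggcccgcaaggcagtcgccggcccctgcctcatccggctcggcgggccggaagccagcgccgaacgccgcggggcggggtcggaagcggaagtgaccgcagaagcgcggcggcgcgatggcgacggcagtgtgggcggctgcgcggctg
Pmpcb: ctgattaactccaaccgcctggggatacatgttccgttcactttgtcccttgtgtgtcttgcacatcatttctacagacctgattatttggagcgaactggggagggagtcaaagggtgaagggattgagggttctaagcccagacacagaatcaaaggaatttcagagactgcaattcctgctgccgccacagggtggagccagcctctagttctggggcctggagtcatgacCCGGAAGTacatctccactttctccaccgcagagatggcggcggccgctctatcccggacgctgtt
Timm23: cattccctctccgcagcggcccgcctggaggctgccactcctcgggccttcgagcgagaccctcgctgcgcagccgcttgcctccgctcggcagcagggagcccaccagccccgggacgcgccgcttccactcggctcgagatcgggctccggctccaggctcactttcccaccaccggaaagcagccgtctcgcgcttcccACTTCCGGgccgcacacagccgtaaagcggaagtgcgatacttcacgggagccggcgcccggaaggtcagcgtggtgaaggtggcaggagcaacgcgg

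The capitals in the Hspe1 window are a match to the heat shock element GAANNTTC, 84 bases before its start. A second RefSeq start of Hspd1 has a window that shares 285 bases with it, and there the same match lies 139 bases before the start of Hspd1. The motif was found in 8.33% of the 36 member promoters (Hspd1, Hspe1 and Timm9), in 5.82% of the 13097 promoters of genes tested at E16.5 and in 7.86% of all 32851 promoters. The capitals in Pmpcb and Timm23 are matches to the ETS motif CCGGAAGT, which 19.4% of member promoters held (Mtx2, Pmpcb, Timm10, Timm10b, Timm23, Timm8a2 and Tomm70a), against 7.27% for tested genes and 3.89% of all. Carriers of this motif include genes that rose (Timm10, Timm23 and Tomm70a) and 1 that fell (Pmpcb). The Pmpca window held no match to any of the 6. The E-box CACGTG was in 16.7% of member promoters against 9.66% for tested genes, the NRF1 motif GCATGCGC in 5.56% against 4.91% (Grpel1 and Timm13), the YY1 motif AAGATGGC in 5.56% against 4.07% (Mtx1 and Timm50), and the CRE TGACGTCA in 0% against 2.95%. All motifs were searched on both strands. The member promoters include those of Timm8a2 and Tomm20l, which were not tested, so they are not a like set to the promoters of tested genes. Timm8a2 is among the carriers of the ETS motif and Tomm20l among those of the E-box. Promoters were given for 33 of the 38 genes, and none for Grpel2, Hspa9, Timm21, Tomm40l and Tomm7.

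Ratios within a library compare 2 genes without any scaling between libraries. Per kilobase of exon, Tomm40l stood at 0.121 and 0.126 of Tomm40 in E16.5 control and at 0.0199 and 0.0202 in MOF cKO, a log2 difference of -2.63. The barrel paralogs therefore moved apart in both libraries. Pmpcb stood at 1.29 and 1.13 of Pmpca in control and at 0.496 and 0.468 in MOF cKO. Per kilobase, the order of the peptidase subunits was turned, with the catalytic one first in control and second in MOF cKO. In CPM, Pmpca was the higher in both groups. The means were 94.4 against 52.9 CPM in control and 146 against 32.5 CPM in MOF cKO. The fall of a ratio is free of the exon lengths used, but the order of a pair is not. Mtx1 stood at 1.37 and 1.26 of Mtx2 in control and at 0.588 and 0.669 in MOF cKO. This turned the order of the metaxins per kilobase too, while in CPM Mtx2 was the higher in both groups. Timm17b stood at 2.49 and 2.18 of Timm17a in control and at 1.15 and 1.21 in MOF cKO, so the ratio fell. In CPM, Timm17a was the higher in every E16.5 library, and the paralogs moved apart. The chaperonin pair kept its order, with Hspe1 at 1.15 and 1.16 of Hspd1 in control and 1.43 and 1.38 in MOF cKO. Grpel2 stood at 0.377 and 0.328 of Grpel1 in control and 0.521 and 0.548 in MOF cKO. With 2 libraries against 2, an exact permutation test could not reach the threshold, and these ratios are given without a test.

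**Figure D3:**
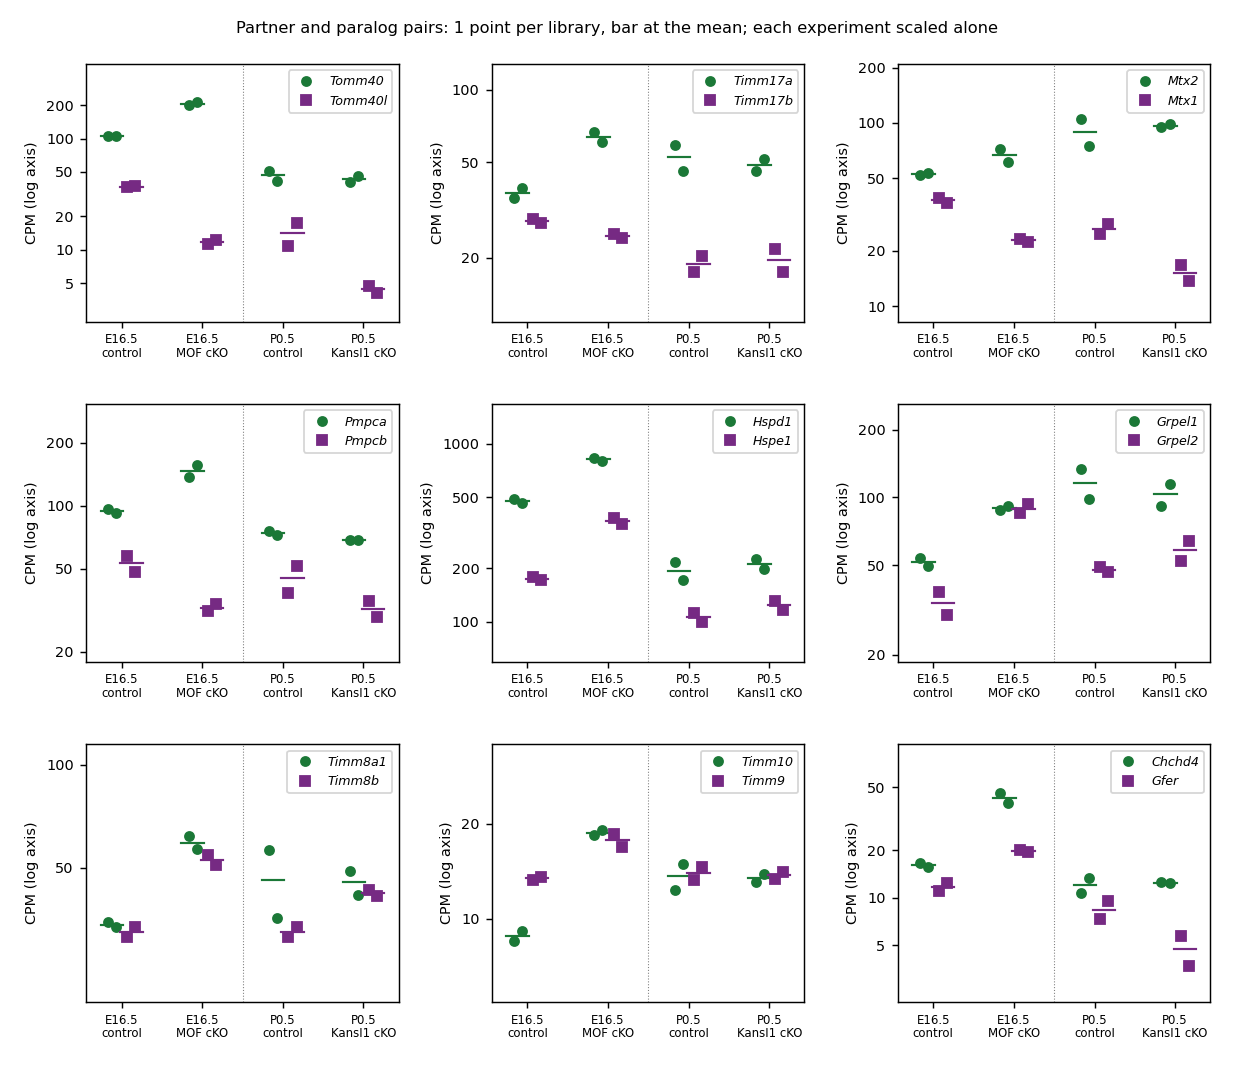
CPM on a log axis of 9 pairs of partners or paralogs, 1 point per library in each of the 4 groups, with a bar at the mean; the E16.5 and P0.5 experiments were scaled alone. In MOF cKO, Tomm40 and Tomm40l, Pmpca and Pmpcb, and Mtx2 and Mtx1 part, while Hspd1 and Hspe1 rise side by side; in Kansl1 cKO, Tomm40l and Mtx1 lie below both controls.

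In Kansl1 cKO no import gene passed the thresholds. edgeR's quasi-likelihood test called 0 of 36 in either direction, as it called 0% of the 13031 genes tested up and 0% down, and the smallest adjusted p of an import gene was 0.176, for Tomm40l. DESeq2, run on the same counts, called 0.269% of genes up and 0.506% down, among them 1 import gene, Tomm40l. At an unadjusted p under 0.05, 1 import gene was higher (2.78%, against 7.43% of all genes) and 6 were lower (16.7%, against 8.26%). Both Kansl1 cKO libraries lay above both controls for 5 import genes (13.9%, against 26%) and below both for 11 (30.6%, against 22.7%). The log2 fold change was above 0 for 14 of 36 (38.9%, against 51.4%), with a median of -0.10 for import genes and 0.01 for all genes. The summed level was 2485 and 2206 CPM in P0.5 control and 2312 and 2340 CPM in Kansl1 cKO, so the groups overlapped.

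Tomm40l had the largest difference in Kansl1 cKO as well. It was at 10.9 and 17.4 CPM in P0.5 control and 4.75 and 4.11 CPM in Kansl1 cKO (log2 fold change -1.68, SE 0.302), with both Kansl1 cKO libraries below both controls. The adjusted p was 0.176 with edgeR's quasi-likelihood test and 0.00162 with DESeq2, and over all alternatives it ran from 0.000367 to 0.627. With Kansl1 cKO replicate 1 or 2 left out Tomm40l was called lower by edgeR's test, and with control replicate 1 or 2 left out it was not. Mtx1 was at 24.9 and 28.0 CPM against 16.7 and 13.7 CPM (log2 fold change -0.80, adjusted p = 0.203, edgeR's quasi-likelihood test). Gfer was at 7.33 and 9.504 CPM against 5.76 and 3.71 CPM (log2 fold change -0.82, adjusted p = 0.298, same test). In each the 2 Kansl1 cKO libraries were the lowest of the 4. Pmpcb was at 38.3 and 51.5 CPM against 35.0 and 29.2 CPM (log2 fold change -0.48, adjusted p = 0.318, same test), and Timm50 at 41.1 and 46.9 CPM against 32.02 and 33.8 CPM (log2 fold change -0.42, adjusted p = 0.292, same test). Dnajc19 was at 30.4 and 27.5 CPM against 19.1 and 19.5 CPM (log2 fold change -0.58, adjusted p = 0.223, same test). The 1 gene with a higher value at this level was Timm8b, at 31.4 and 33.5 CPM in control and 42.9 and 41.2 CPM in Kansl1 cKO (log2 fold change 0.37, adjusted p = 0.317, same test).

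Most of the genes with the largest rises in MOF cKO had log2 fold changes near 0 in Kansl1 cKO. Chchd4 was at 10.7 and 13.4 CPM in P0.5 control and 12.5 and 12.3 CPM in Kansl1 cKO, and its log2 fold change was 0.04 (SE 0.216). Tomm40 had -0.09 (SE 0.175), Timm10 -0.02 (SE 0.204) and Hspa9 0.03 (SE 0.221). Hspe1, at 112 and 99.6 CPM against 131 and 117 CPM, had 0.23 (SE 0.163), and Hspd1 had 0.13 (SE 0.187). Grpel2, the second in size of rise in MOF cKO, was at 48.9 and 46.4 CPM in P0.5 control and 52.3 and 64.2 CPM in Kansl1 cKO (log2 fold change 0.29, SE 0.169, adjusted p = 0.458, edgeR's quasi-likelihood test). For Grpel2 and Hspe1 both Kansl1 cKO libraries lay above both controls. The spread between controls was wider at P0.5, with a median SD over the tested import genes of 13.01% of the mean, than at E16.5, with 4.65%. Within libraries, Tomm40l stood at 0.0749 and 0.147 of Tomm40 per kilobase in P0.5 control and at 0.0409 and 0.0313 in Kansl1 cKO, and Mtx1 at 0.432 and 0.688 of Mtx2 against 0.320 and 0.254. The ratio of Gfer to Chchd4 was 1.18 and 1.21 in P0.5 control and 0.785 and 0.515 in Kansl1 cKO, and that of Grpel2 to Grpel1 was 0.197 and 0.255 against 0.307 and 0.303. Of the 9 pairs, the first 3 of these ratios were lower in both Kansl1 cKO libraries and the last higher, and the other 5 overlapped between groups. Of 16 macrophage markers 0 were called at P0.5 and 5 were higher at an unadjusted p under 0.05. Above both controls lay 10 of them and below both 0, against 26% and 22.7% of all genes. They summed to between 1194 and 1444 CPM with overlapping groups. Lgals3 alone held 1037 and 981 CPM of this sum in control and 807 and 1019 CPM in Kansl1 cKO. Of 11 fibroblast markers 8 lay below both controls, with a summed level between 2014 and 2788 CPM in control and between 1760.2 and 2097 CPM in Kansl1 cKO, and 7 of 7 melanocyte markers were above both controls in Kansl1 cKO, with a summed level between 474 and 532 CPM in control and between 1027 and 1143 CPM in Kansl1 cKO. Their part in the import gene values was not tested.

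Whether the effects differ between experiments was tested with a contrast over all 8 libraries, the MOF effect minus the Kansl1 effect. In this contrast genotype cannot be told apart from stage, isolation and sequencer. At an adjusted p of 0.01 and a ratio over 1.5, edgeR's quasi-likelihood test called 0 of 36 import genes, against 1.76% of 14565 genes called higher in MOF cKO and 1.17% lower. DESeq2 called 10 import genes, all higher in MOF cKO (Chchd4, Gfer, Grpel1, Grpel2, Hspa9, Hspe1, Pmpca, Timm10, Timm17a and Tomm40), against 6.7% of all genes called higher and 3.57% lower. In edgeR's fit without P0.5 control replicate 2, 1 import gene, Hspa9, was called, and 0 without any other library. An unadjusted p under 0.05 was given to 19 of 36 by edgeR's test with all libraries, all of them with the larger log2 fold change in MOF cKO, against 14.8% of all genes with a larger and 16.4% with a smaller one. At an adjusted p of 0.05, a level chosen after the data were seen, 9 import genes had a larger log2 fold change in MOF cKO and 0 a smaller one, against 7.04% and 6.76% of all genes. The smallest adjusted p belonged to Chchd4 (difference 1.34, SE 0.257, adjusted p = 0.0132) and Tomm40 (difference 1.03, SE 0.198, adjusted p = 0.0132), both by edgeR. For Tomm40l the difference was -0.0048 (SE 0.394), for Mtx1 0.04 (SE 0.235) and for Pmpcb -0.25 (SE 0.261). The genes that fell in MOF cKO thus had values of the same sign in Kansl1 cKO, and the standard errors of these differences were from 0.235 to 0.394.

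Levels per length place the import genes over a wide range. On a scale shared by all 8 libraries, in CPM per kilobase of exon, the highest levels in E16.5 control were those of Hspe1 at 208 ± 5.82, Hspd1 at 181 ± 6.45, Hspa9 at 124 ± 6.78 and Timm23 at 75.7 ± 1.85 (SD, n = 2). Each of these 4 was separated from the next by more than their SDs. The lowest among tested genes were Dnajc19 at 2.84 ± 0.195, Timm9 at 4.19 ± 0.0948 and Chchd4 at 4.31 ± 0.146 (SD, n = 2), the last 2 within their spread. In MOF cKO the first 4 kept their order, with Hspe1 at 437 ± 23.8, while Chchd4 moved from rank 34 to rank 26 of 38. Tomm40l moved from rank 29 to rank 35. In P0.5 control Timm23 had the highest mean, 170 ± 40.2, which did not differ from that of Hspe1, 147 ± 11.6, beyond the spread (SD, n = 2). Tomm40 was at 57.9 ± 0.120 in E16.5 control and at 29.8 ± 4.20 in P0.5 control, and Mtx2 at 16.3 ± 0.383 and 32.6 ± 7.74 (SD, n = 2). The 2 control groups differ in stage, isolation and sequencer, and no test was made between them.

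**Figure D4:**
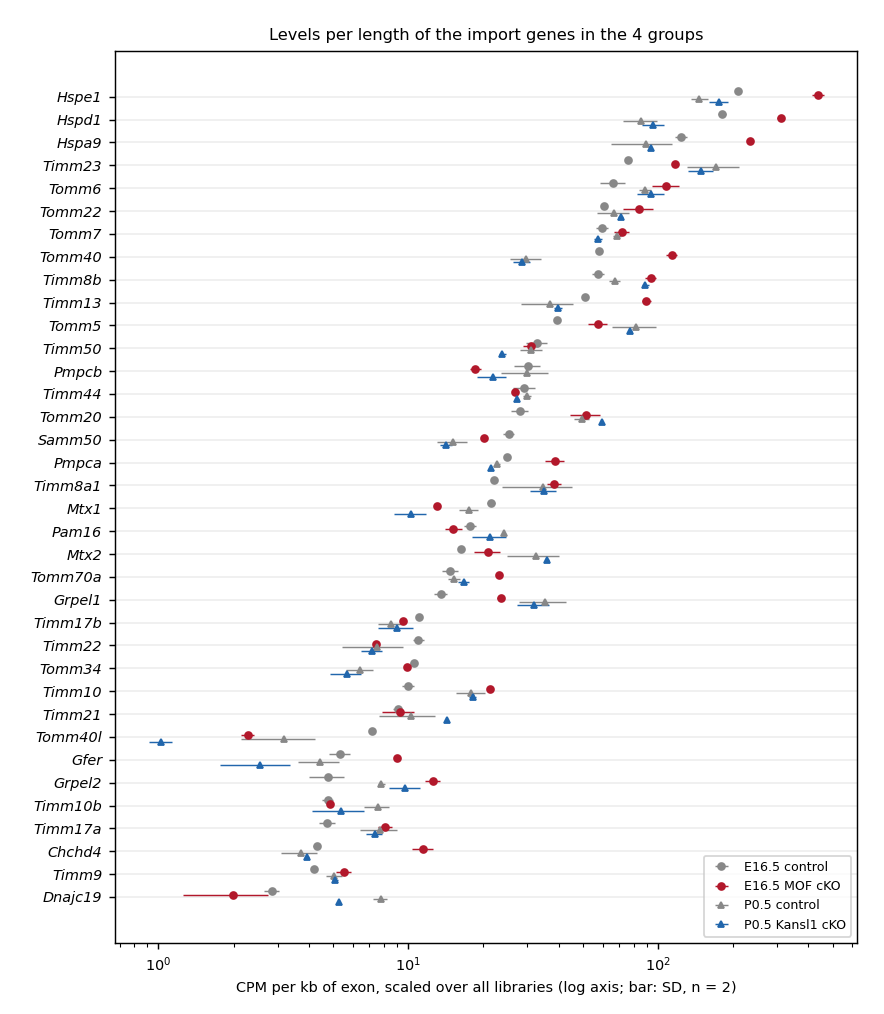
Level of each of the 36 tested import genes in CPM per kilobase of exon (x axis, log scale, scaled over all 8 libraries), ordered by E16.5 control; points are group means and bars the SD of 2 libraries. Hspe1, Hspd1 and Hspa9 stand highest at E16.5, with MOF cKO to the right of control, and Tomm40l lies to the left of its own control in both cKO groups.

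Genes of neighbouring functions were taken as whole lists. Of 17 other import genes outside the rule, 11 lay below both controls in MOF cKO and 1 above both, against 37.7% and 34.9% of all genes. At an unadjusted p under 0.05 in edgeR's quasi-likelihood test, 6 were lower and 0 higher, against 25.1% and 23.7%. By the thresholds, 0 of the 17 rose and 3 fell, against 10% and 9.59% of all genes, with a median log2 fold change of -0.30. Those that fell were Agk, a lipid kinase of the TIM22 complex, at 25.9 and 25.5 CPM in control and 9.79 and 9.32 CPM in MOF cKO, Mtx3, another metaxin, at 25.3 and 29.8 CPM against 10.04 and 8.64 CPM, and Immp1l, an inner membrane peptidase subunit, at 21.6 and 23.9 CPM against 12.6 and 12.1 CPM. Their log2 fold changes were -1.43, -1.56 and -0.88. The TIM22 subunit Timm29, listed under its older symbol 1810026J23Rik and so outside the rule, was at 61.2 and 56.7 CPM in control and 71.5 and 60.9 CPM in MOF cKO (log2 fold change 0.17, adjusted p = 0.338, edgeR's quasi-likelihood test). Of 9 mitochondrial proteases and stress chaperones, 0 were called by edgeR's quasi-likelihood test and 3 were higher at an unadjusted p under 0.05, and the matrix protease Lonp1 was at 157 and 142 CPM in control and 118 and 137 CPM in MOF cKO. Of the 8 genes of the cytosolic chaperonin TRiC, 5 rose and 8 lay above both controls, with a median of 0.67. Of 11 tested genes of the integrated stress response, 3 rose (Asns, Atf4 and Sesn2), with a median of 0.62. Of 76 mitochondrial ribosomal protein genes, 7 rose and 3 fell, against 10% and 9.59% of all genes, with a median of -0.12. More of the 76 leaned down: 39 lay below both controls and 20 above both, against 37.7% and 34.9% of all genes. At an unadjusted p under 0.05 in edgeR's quasi-likelihood test, 25 were lower and 9 higher, against 25.1% and 23.7%. In Kansl1 cKO, 53 of the 76 lay below both controls and 0 were called, with a median of -0.29, and 4 of the 17 other import genes were lower at an unadjusted p under 0.05.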

How the data were processed

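Polyadenylated RNA of 8 libraries (2 per group, directional kit) had been sequenced on HiSeq (E16.5) and NovaSeq (P0.5) instruments. The authors aligned reads to mm10 and deposited raw counts per gene symbol from HTSeq, without normalization. The aligner is HISAT2 in the study's methods and TopHat2 per the labels, and the gene annotation and strand setting of the counting are not given in the sources used here. Rows that name no gene held 21.1% to 26.0% of reads and were left out.

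The counts were filtered with filterByExpr and scaled by TMM in edgeR 4.0.16 (R 4.3.3), and each experiment was fitted alone with the quasi-likelihood test, adjusted by Benjamini-Hochberg over all genes tested. Calls needed an adjusted p of at most 0.01 and more than 1.5-fold change, as in the study. SE is the log2 fold change divided by the square root of F. One count stood for 0.0326 to 0.115 CPM. Nothing says whether libraries of a group came from separate litters, so p-values measure the spread between these libraries. The scripts were tested on simulated data. Coordinates, exon lengths and overlaps are from GENCODE M21, on which all 38 genes were matched by symbol, and promoters from RefSeq on GRCm38.p6.

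Values are given in full for import genes called in MOF cKO or with a log2 fold change of at least 0.3 either way, for those at an unadjusted p under 0.05 in Kansl1 cKO, and for the partner and paralog pairs. The members and lists were chosen with earlier results of these data known. Alternatives were DESeq2 1.42.0, other scalings, filters and thresholds, edgeR's likelihood ratio test and its glmTreat test against the fold threshold, the replicate number as a block, 1 fit over all libraries and leaving out each library, which leaves a group with 1 library assumed to vary like the others. A crossed pairing in each experiment, the level of at least 10 CPM and the level of 0.05 for differences between experiments were added after the data were seen. Protein sequences were not analysed here.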

Additional observations from a re-analysis of the deposited data

Results flagged for a closer look

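The effects of 9 import genes differed between the experiments at an adjusted p of 0.05 with a ratio over 1.5, in edgeR's quasi-likelihood test of the MOF effect minus the Kansl1 effect over all libraries. Stage, isolation and sequencer cannot be told apart from genotype in this difference. On the log2 scale it was 1.34 for Chchd4, 1.03 for Tomm40, 1.07 for Grpel2, 0.81 for Hspe1, 1.54 for Gfer, 0.71 for Pmpca, 1.07 for Timm10, 0.93 for Grpel1 and 0.84 for Timm17a, with adjusted p from 0.0132 to 0.0376. For Gfer the MOF cKO libraries lay above both of their controls and the Kansl1 cKO libraries below both of theirs. None of the 9 passed an adjusted p of 0.01.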

How the results depend on the processing

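With 17 rises and 3 falls in MOF cKO, dividing by library size alone gave 5 and 5, and testing against the 1.5-fold threshold 4 and 1. The other settings with all libraries gave 14 to 18 rises and 2 to 4 falls. Leaving out 1 library gave 13 to 17 rises and 1 to 3 falls. The median log2 fold change of import genes, 0.59, became 0.28 with library size alone and 0.50 when any gene with 1 count was kept, and ran from 0.51 to 0.61 with 1 library left out. In Kansl1 cKO 0 import genes rose in any setting, and 1 fell when DESeq2, the likelihood ratio test or no filter beyond 1 count was used. Leaving out 1 library there gave 0 to 1 falls. The median, -0.10, became -0.15 with upper-quartile factors and -0.15 with library size alone, and ran from -0.16 to -0.076 with 1 library left out. For the difference between experiments, the 0 calls became 9 at an adjusted p of 0.05 and 10 with DESeq2. They became 10 when any gene with 1 count was kept, where 1112 of all 18447 genes were called higher and 539 lower. The likelihood ratio test gave 7, where 909 of all 14565 genes were called higher and 801 lower. DESeq2 size factors gave 1, at least 10 counts in every library gave 1, and fits with 1 library left out gave 0 to 1. The cause of these shifts was not tested. With the replicate block, 18 import genes rose and 3 fell in MOF cKO and 0 were called in Kansl1 cKO or in the difference. Over all genes, that block called 0 of 13031 in Kansl1 cKO and 1 of 14565 in the difference. Per gene, the log2 difference between control replicates 1 and 2 was correlated with that between cKO replicates 1 and 2. The correlation was 0.206 over 13956 genes in MOF cKO and -0.202 over 13031 genes in Kansl1 cKO. Whether the numbers mark pairs was not settled. Crossed numbers, added after the data were seen, gave 898 genes up and 814 down in MOF cKO. Same numbers as a block gave 1903 and 2263, and no block 1395 and 1338. Import gene calls with crossed numbers are not given for MOF cKO, and were 0 in Kansl1 cKO. Over the genes named with full values, no sign changed in 392 MOF cKO and 105 Kansl1 cKO values. With 2 libraries per group and P0.5 depth down to 9108709 counts, small differences were not detectable.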
